A study of Chlamydomonas reinhardtii with 2 samples.

Results

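Internal exon segments, as named here, are the stretches of genome that lie between one candidate intron and the next. From the messenger RNA of the green alga Chlamydomonas reinhardtii, 906 of them were found. They were chosen from the reads themselves, on both libraries summed. A read that spans a splice junction cannot be aligned whole to the genome, and the authors' processing cut such reads back from an end until the rest matched. A position where cut alignments of at least 6 different lengths began was taken as a left edge, and one where at least 6 lengths ended as a right edge. A right edge and the left edge after it, 50 to 2000 nt apart and each the other's nearest, bounded a candidate intron if the mean depth between them was under 20% of the depth over the 30 nt to the left, and likewise over the 30 nt to the right. Depth is the number of alignments that cover a base. Members are the segments of at most 2000 nt from the end of one candidate intron to the start of the next. There were 1413 candidate introns, of which 1225 bounded a segment (86.7%), and the assembly spans 112306 windows of 1 kb. The segments held 222156 bases, or 0.198% of the 112.3 Mb spanned, and 1576803 of the 11167842 reads lay wholly inside them (14.1%). Left and right are meant along the assembly, since the files give no strand, and the genes were not identified here.

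Splicing removes introns from a transcript and joins the exons on either side. An exon with an intron on both sides is called internal, and one whose length can be divided by 3 can be kept or left out without a shift of the reading frame. Chlamydomonas genes are rich in introns, and most of its protein-coding genes hold several exons. Very short exons, often called microexons, are hard to see with short reads, because most reads from them run across a junction.

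The group held 2 libraries of RNA purified by its poly-A tail, made from cultures of strain 2137 (collection number 1021), with 5380216 uniquely aligned reads of up to 35 nt in replicate 1 and 5787626 in replicate 2. Growth was at 23 °C under constant light (50 to 90 µmol photons m-2 s-1, as labelled) in Tris-acetate-phosphate medium with a revised mix of trace elements, after a dilution of 1 to 100. The strain tag of replicate 2 reads 2138, against its own title, which was followed. No other medium was analysed here, so there is no comparison of conditions, and the labels do not say whether the libraries came from separate cultures.

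Most segments were short. Their median length was 132.5 nt (95% order-statistic interval 125 to 139), with an interquartile range of 85 to 231 nt and a range of 27 to 1961 nt. The candidate introns that bound them had a median of 203 nt (197 to 213). A segment was shorter than both of its introns in 521 cases (57.5%) and longer than both in 218 (24.1%). The class of 100 to 149 nt held 225 segments, and the narrower class of 60 to 99 nt held 217. At the long end 119 segments reached 500 nt or more.

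Not every segment was a single covered block. In all, 454 segments (50.1%, Clopper-Pearson interval 46.8 to 53.4%) had no uncovered base and no further edge inside, and are called unbroken here. In 447 of them both ends were closed, meaning that under 10% of reads ran on past either end. The 454 unbroken segments had a median length of 107.5 nt (101 to 118), and 365 of them (80.4%) were 50 to 200 nt long. Of the rest, 287 were covered throughout but held a further edge, and 165 held bases that no read covered. Further edges were found in 63.6% of the 453 deeper segments and in 29.6% of the 453 shallower ones. An edge needs cut alignments of at least 6 lengths, which more reads supply, so this difference is a description and no finding. Whether a further edge is a splice site was not tested.

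**Figure D1:**
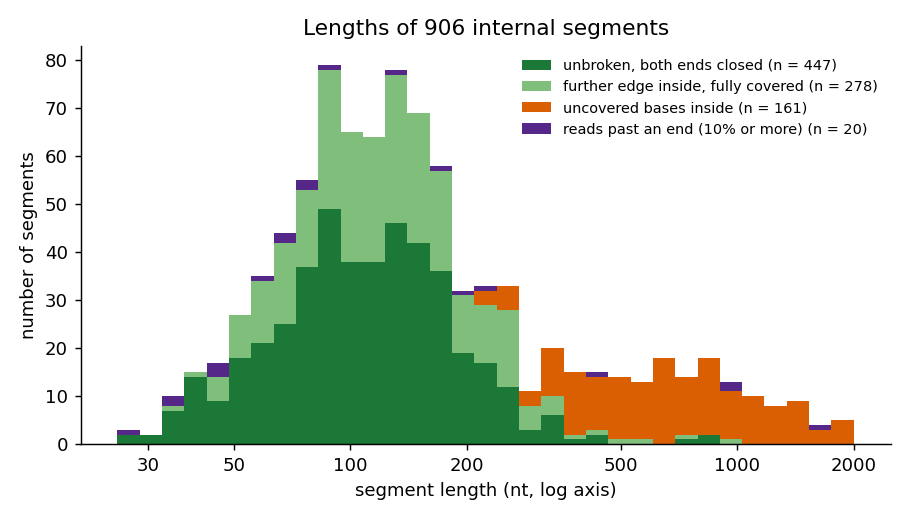
Number of segments by length on a log axis, stacked by what lies inside: 447 unbroken segments with both ends closed, 278 fully covered ones with a further edge, 161 with uncovered bases and 20 with 10% or more of reads running past an end. Segments above 300 nt are mostly those with uncovered bases.

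Lengths that can be divided by 3 made up 34.5% of all segments (313 of 906, interval 31.5 to 37.7%), and a remainder of 1 or 2 made up 31.6% and 33.9%. In the unbroken segments the share was 36.8% (167 of 454, interval 32.3 to 41.4%), and in those of 27 to 99 nt 39.5% (79 of 200, interval 32.7 to 46.6%), against 33.3% in those of 100 to 249 nt (78 of 234, interval 27.3 to 39.8%). Of the bounding introns 32.3% could be divided by 3 (396 of 1225, interval 29.7 to 35.0%). The intervals for segments and introns overlap, but overlap is no test, and the difference between them was not tested. Each of these intervals includes 33.3%, so no excess over 1 in 3 was detectable with this number of segments. Where the first bases of an intron equal those of the exon after it, a cut alignment can run on into the intron, and the segment is then longer than its exon. No sequence was used here, so the size of this shift was not tested.

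The shortest segments are of microexon size. Because cut alignments were kept down to 21 nt, 6 lengths at an end need a segment of at least 26 nt, and the shortest found had 27 nt. Under 35 nt there were 8 segments, and as their size demands they held 0 alignments of 35 nt. Of their 1993 reads 229 covered the segment from end to end, 1119 touched the left end only, 599 the right end only, and 46 touched neither. The deepest of them, at 26924527 to 26924553, lay between introns of 332 and 191 nt. It had a mean depth of 374 in replicate 1 and 438 in replicate 2, with 532 cut alignments that began at its left end and 505 that ended at its right end. The segment at 77138632 to 77138658, also 27 nt, had depths of 134 and 164 in replicates 1 and 2. Both were deep in each library, and no more than 1 read ran past an end of either.

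The next 3 by length were shallower. The third 27 nt segment, at 100430916 to 100430942, had depths of 25.9 and 27.6 in replicates 1 and 2. Its right end had 8 cut alignments that stopped there and 17 uncut ones that ran on, so this end is not well marked. Its neighbour of 30 nt, at 100431072 to 100431101, had depths of 30.4 and 51.8, and the segment of 32 nt at 65068545 to 65068576 had 35.4 and 54.3. Of these 3, the 30 nt and the 32 nt segment had 0 reads running past either end. Depth did not fall steadily with length, since the 34 nt at 64844858 to 64844891 had 172 and 191 in replicates 1 and 2. It had 331 cut alignments at its left end and 80 at its right end, and held 1 further edge.

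The share of cut alignments fell with length. Cut alignments at both ends were part of the rule, and longer segments have room for more alignments of 35 nt. This fall is therefore a description and no finding. Of the reads wholly inside, alignments under 35 nt made up a median of 80.8% in the 25 segments of 35 to 44 nt, 54.3% in the 59 of 45 to 59 nt and 39.2% in the 107 of 60 to 79 nt. It was 22.1% at 100 to 149 nt and 15.8% at 150 to 249 nt. From 500 nt on it was 18.6%, and 112 of those 119 segments held uncovered bases.

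**Figure D2:**
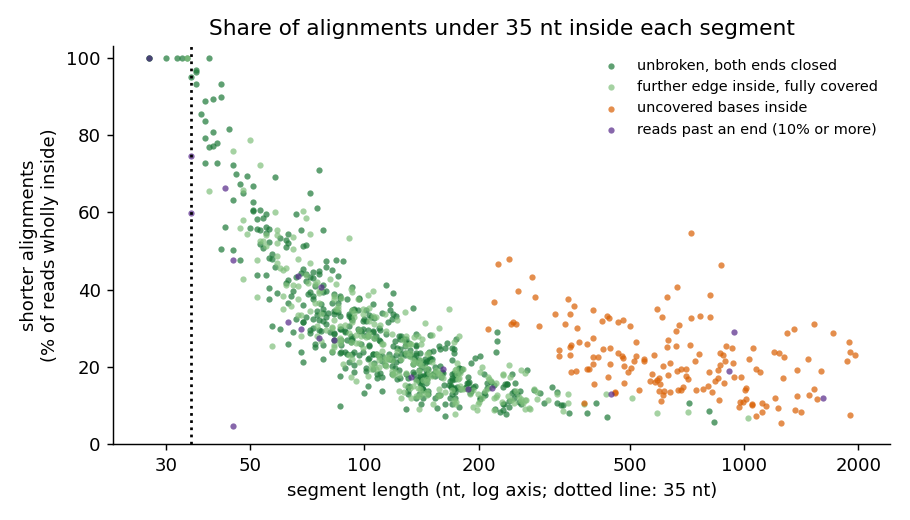
Alignments under 35 nt as a percentage of the reads wholly inside each segment, against segment length on a log axis; each point is 1 segment, coloured as in the plot of lengths. The share is 100% left of the dotted line at 35 nt and falls to a median of 15.8% at 150 to 249 nt.

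Depth varied widely among the segments. The median of the mean depth was 154 (95% order-statistic interval 124 to 180), with an interquartile range of 60.7 to 605 and a range of 6.87 to 5896. It was 101 in the 447 unbroken segments with closed ends, and 29.9 over all segments with repeats of a position and length set to 1. The bounding introns had a median depth of 0.479, where a limit relative to the flanks was part of the rule. Between 60 and 249 nt the median depth changed little with length, at 188 for 60 to 79 nt, 235 for 80 to 99 nt, 245 for 100 to 149 nt and 220 for 150 to 249 nt. It was 78.1 at 250 to 499 nt and 28.6 from 500 nt on. The highest depth inside a segment was less unequal, with a median of 352 at 100 to 149 nt and 109 from 500 nt on. An exon with under 6 cut reads at an end could not become a member, so the depths describe the better-read exons only.

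**Figure D3:**
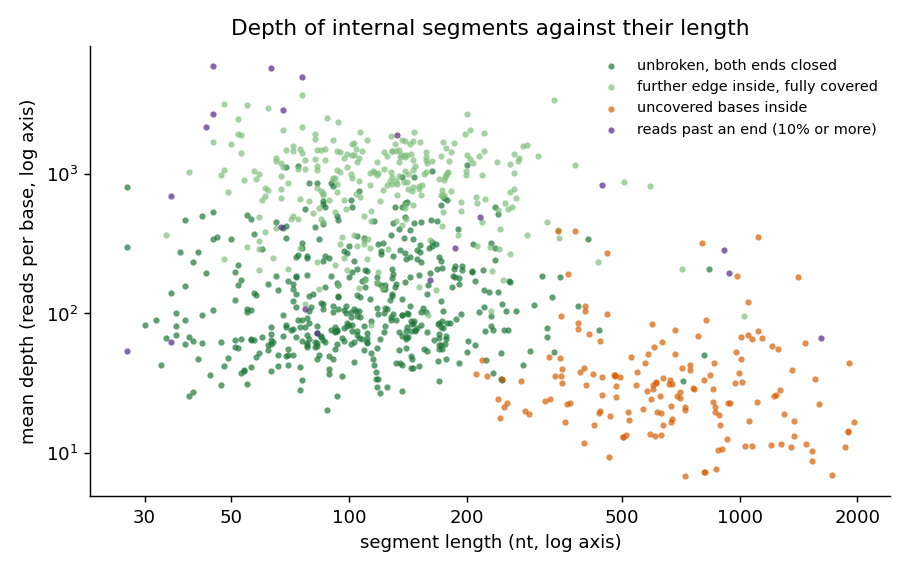
Mean depth of each segment against its length, both on log axes and coloured as in the plot of lengths. Segments with uncovered bases lie at the long and shallow end, and those with reads running past an end hold the 3 highest depths.

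Among the 10 deepest segments, 5 had over 90% of reads running past an end. The deepest, 45 nt at 16023933 to 16023977, reached 2857 in replicate 1 and 3039 in replicate 2 (mean depth). Only 11 cut alignments began at its left end and 15 ended at its right end, while 1869 and 2309 uncut reads ran across these ends. The second, 63 nt at 106390305 to 106390367, had depths of 2829 and 2952 in replicates 1 and 2, with 1502 reads running past its left end and 2 past its right end, where 2524 cut alignments stopped. The third, 76 nt at 16024315 to 16024390, had depths of 2394 and 2548, and 251 reads ran past its right end against 11 that stopped there. In the segments at 108992729 to 108992796 and 106390195 to 106390239, 99.1% and 95.1% of reads ran past one end. So in 5 of the 10 most reads passed over an end, and the pile of cut reads at that end was small beside the depth. Their ends go against the label of an exon bounded by 2 introns.

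The other 5 had closed ends. The segment of 76 nt at 19295800 to 19295875 had depths of 1808 and 1854 in replicates 1 and 2, with 1493 cut alignments at its left end, 1163 at its right end and 4 reads running past. Its neighbour of 62 nt at 19295651 to 19295712 had 1468 and 1508. These 2 are separated by a candidate intron of 87 nt and closed on both sides. The 334 nt at 106389715 to 106390048 had depths of 1638 and 1767 and held 33092 reads, the most of any segment. It also held 51 further edges, the most found. The 48 nt at 108993927 to 108993974 had 1530 and 1649, and the 55 nt at 57332353 to 57332407 had 1476 and 1632. At the right end of the 55 nt segment 24 reads ran past, against 1049 cut alignments that stopped there.

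All 10 deepest segments held further edges, from 4 to 51. The deepest of the 447 unbroken segments with both ends closed were therefore looked up after the values were seen. They were the 201 nt at 16793443 to 16793643, with mean depths of 553 in replicate 1 and 613 in replicate 2, and the 74 nt at 5464686 to 5464759, with 522 and 627. The third was the 69 nt at 3946282 to 3946350, with 559 and 569. At the ends of these 3 segments 180 to 580 cut alignments stopped and 0 uncut reads ran past.

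Ends differed in how many reads ran on into the intron beside them. Low depth in the introns and cut alignments of 6 lengths at each end were part of the rule, so low values here are a description of the choice and no finding. An alignment of 35 nt with at least 6 nt on each side of an end was counted as running past, and set against the cut alignments that stopped there, each per possible start position. At 1588 of 1812 ends (87.6%) no read ran past, and the median was 0%. Over 10% ran past at 21 ends and over 50% at 14 ends of 13 segments. These 13 segments had a median depth of 1904 (interquartile range 285 to 2862), against 151 (60.5 to 579) in the other 893. Such an end needs cut alignments of 6 lengths and still more uncut reads per start position, which favours deep segments. This contrast is therefore a description of the choice as well. Outside the deepest segments, the 35 nt at 46257897 to 46257931 had 96.2% at its left end, with 9 cut and 459 uncut reads. The 911 nt at 73904636 to 73905546 had 97.5% at its left end, with 17 cut and 1330 uncut reads. In both, the right end was closed, with 203 and 895 cut alignments and 0 uncut reads.

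The ends of a segment differed in the number of cut alignments. A median of 47 cut alignments (interquartile range 21 to 161) of 9 different lengths marked an end, and 199 of 1812 ends just met the minimum of 6 lengths while 354 had all 12. The lower over the higher count of the 2 ends had a median of 0.615 across a segment. Across the intron between neighbouring segments, where reads of 1 junction would feed both counts, it was 0.667 (95% order-statistic interval 0.639 to 0.690). The left over the right end had a median ratio of 1.08, so neither side was favoured by much.

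Depth was lower near the ends of a segment. A read across a junction was kept only if a long enough piece of it matched the genome. Fewer reads can therefore cover an end base than a base in the middle. Closed ends marked by cut alignments were also part of the choice, so this fall is a description and no finding about exons. In 196 unbroken segments of 120 nt or more with closed ends, depth was set relative to the middle, which leaves out 30 nt at each end. At the first base the median was 35.7% of the middle and at the last base 38.4%. At 10 nt inside it was 63.8% and 66.1%, and 20 nt inside 94.4% and 92.5%, for left and right ends in that order. Cut alignments supplied 27.2% and 27.3% of the middle depth at the end bases, where alignments of 35 nt supplied 6.53% and 7.23%. At 1 nt outside the segment the median was 4.69% and 5.32%, nearly all from alignments of 35 nt, which were allowed 2 mismatches. At 10 nt outside it was 0%.

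**Figure D4:**
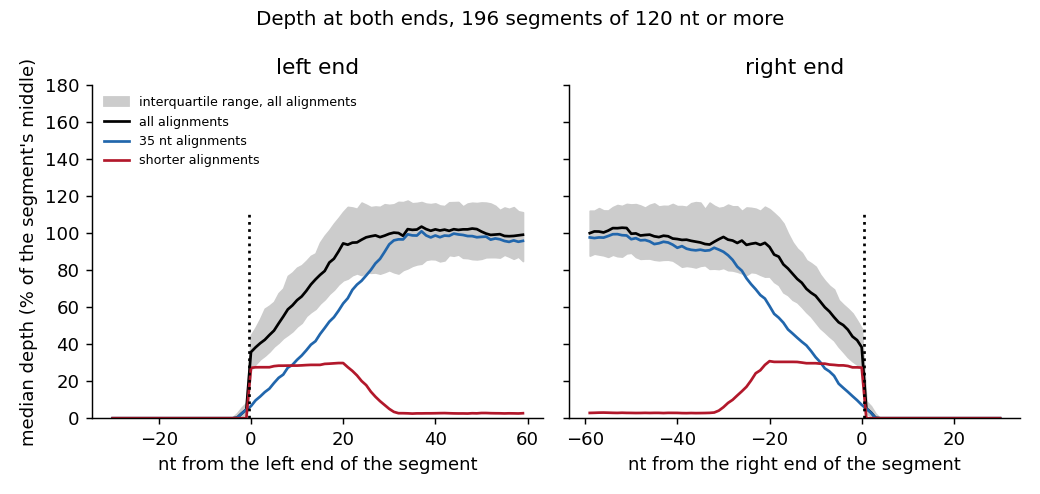
Median depth by distance from the left and the right end of 196 unbroken segments of 120 nt or more, as a percentage of the depth in the segment's middle. Black is all alignments with the interquartile range in grey, blue the alignments of 35 nt and red the shorter ones; the dotted line is the end, where the median is 35.7% on the left and 38.4% on the right.

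Long segments were mostly broken. Of 119 segments of 500 nt or more, 112 (94.1%, interval 88.3 to 97.6%) held uncovered bases, while of 701 under 250 nt it was 7 (0.999%, interval 0.402 to 2.05%). In 157 segments an uncovered stretch reached 50 nt or more, with a median of 185 nt (167 to 213) and a range of 50 to 883 nt. An edge lay within 3 nt of 1 side of the stretch in 69 of the 157 and on neither side in 88. A stretch with an edge on both sides would have been a candidate intron, so such cases are excluded by the rule. Whether the stretches are introns with too few cut reads, gaps between genes or places where reads cannot align uniquely was not tested.

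The 5 longest segments were all of this kind. The longest, 1961 nt at 846425 to 848385, averaged a depth of 7.89 in replicate 1 and 8.85 in replicate 2, and 1021 of its bases were uncovered. The 1906 nt at 41349828 to 41351733 had depths of 20.95 and 22.99 and a single uncovered stretch of 883 nt, the longest found. The 1897 nt at 11830951 to 11832847 had 1179 uncovered bases, the 1893 nt at 39549231 to 39551123 had 1213, and the 1863 nt at 93778142 to 93780004 had 1480. Stretches of 596, 588 and 538 nt without a read lay in the segments that start at 41347197, 15181846 and 100873634. In contrast the 834 nt at 10419642 to 10420475 was unbroken, with depths of 101 and 109 in replicates 1 and 2, and was the longest unbroken segment with closed ends, looked up after the values were seen.

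The segments fell into 319 rows, a row being a run of consecutive candidate introns with a segment between each. In 98 rows there was 1 segment, in 69 rows 2 and in 56 rows 3. The 54 rows of 5 or more held 334 segments (36.9%), and the extent from the first segment to the last had a median of 938 nt over all rows. Within the 54 rows, the lowest over the highest peak depth of the segments had a median of 0.444 and reached 0.25 in 41 rows. Along the assembly, each 10 Mb from the start to 110 Mb held 49 to 111 segments.

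The longest row had 11 segments between 1207790 and 1212455. Of these 9 were 40 to 111 nt long, with mean depths of 57.8 to 123, and the sixth and ninth were 665 and 744 nt. The fifth segment, 72 nt, was the deepest, with 66.6 in replicate 1 and 56.6 in replicate 2. The tenth, 85 nt, had 60.6 and 58.2. The sixth was the shallowest, with 7.81 and 8.94, but its highest depth of 120 lay above those of 5 others in the row, and 492 of its 665 bases were uncovered. The ninth had 20.7 and 22.0 with 152 uncovered bases. Over the other 9 the libraries differed in either direction, from 33.4 in replicate 1 and 49.3 in replicate 2 for the second segment to 39.9 and 32.2 for the third.

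**Figure D5:**
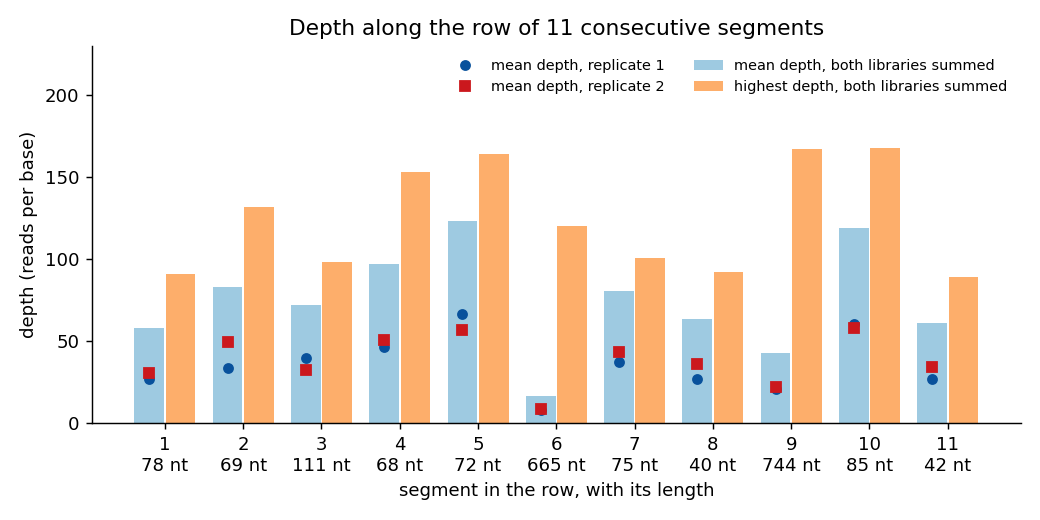
Mean depth (blue bars) and highest depth (orange bars) of the 11 segments of the longest row in their order along the assembly, both libraries summed; points give the mean depth in each library, not scaled for library size. The sixth and ninth segments, 665 and 744 nt, have low mean depths of 16.8 and 42.7 and highest depths of 120 and 167.

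Neighbouring segments had similar depths. Over 587 pairs of neighbours, the shallower over the deeper mean depth had a median of 0.743 (95% order-statistic interval 0.721 to 0.768), and 493 pairs (84.0%) were at 0.5 or more. In the 193 pairs of unbroken segments with closed ends the median was 0.788, and 186 (96.4%) reached 0.5. The depth of both flanks of an intron and the cut alignments at each end were part of the rule. Unbroken segments also leave out uncovered bases, which lower a mean, by definition. The ratios are therefore a description and no finding, and segments that are not neighbours were not compared. The most unequal of these 193 pairs, looked up after the values were seen, was 223 nt at 38287142 to 38287364, with depths of 35.6 and 39.0 in replicates 1 and 2, beside 40 nt at 38287560 to 38287599, with 17.1 and 10.3. In longer segments depth was lower within 20 nt of each end, and the part of this in the low value of the 40 nt segment was not tested.

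A segment left out of part of the transcripts would be shallower than both of its neighbours. Of 366 segments with a neighbour on both sides 8 (2.19%, interval 0.948 to 4.26%) had under 50% of the mean depth of the shallower neighbour, and all 8 held uncovered bases. The lowest was the sixth segment of the longest row, at 0.208 of its shallower neighbour. The 357 nt at 69325091 to 69325447 stood at 0.222, with 8.29 and 8.31 in replicates 1 and 2 and 178 uncovered bases. The 672 nt at 35992601 to 35993272 stood at 0.259, the 627 nt at 88345936 to 88346562 at 0.323 and the 813 nt at 45324626 to 45325438 at 0.358. By highest depth these 5 stood at 0.621 to 1.25 of the shallower neighbour. Over covered bases alone, a measure added after the values were seen, 1 of the 366 segments was under 50%. It was the 357 nt segment, with a depth of 33.1 over its covered bases and a ratio of 0.443, and the other 7 stood at 0.535 to 1.22. Whether any of the 8 is left out of part of the transcripts was not tested.

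Among the 190 unbroken segments with closed ends and 2 neighbours the lowest ratio was 0.503. Segments with uncovered bases, among them all 8 under 50%, are left out of these 190 by definition, so the absence of lower ratios there is no finding. The lowest, 55 nt at 59297408 to 59297462, was singled out after its value was seen. It had a mean depth of 14.4 in replicate 1 and 17.0 in replicate 2, against 34.8 and 30.7 in the left neighbour of 120 nt and 28.9 and 33.5 in the right neighbour of 47 nt. It was lower than both neighbours in each library. The files hold no junction reads, so reads that skip a segment could not be counted.

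The libraries gave nearly the same level for each segment. Reads wholly inside a segment, given per 1000000 unique alignments of the library (RPM), had a median of 62.1 over the segments (interquartile range 26.2 to 199) and were correlated between the libraries at a Pearson r of 0.996 on the log2 scale, across 906 segments that are not independent replicates. The two-sided exact binomial test with Benjamini-Hochberg adjustment called 0 of 906 segments (0%) and 0 of 44135 windows of 1 kb (0%) different between the libraries. At an unadjusted p under 0.05 it counted 52 segments (5.74%), against 1541 windows (3.49%). The lowest unadjusted p belonged to the 102 nt at 108109934 to 108110035, with 485 RPM in replicate 1 and 444 RPM in replicate 2 (exact binomial test, adjusted p = 1). The mean chi-square was 1.05 per segment and 1.01 per window. The libraries thus lay close to the sampling noise and were counted as 1 sample. These p-values set 2 counts against an expected share, so they measure departure from counting noise and estimate no spread between samples. Any difference between the 2 libraries may be technical.

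The choice of edges decided which segments were members: asking for 8 lengths at an edge gave 524 segments and asking for 4 gave 1756. Both ends were marked by at least 3 lengths in each library for 857 segments (94.6%), but the members were called on the sum of the libraries. Called in 1 library alone, replicate 1 gave 511 and replicate 2 gave 546 segments, of which 464 and 481 had the same ends as a member. There were 361 members that neither library gave alone. Just inside the length limit of 2000 nt lay segments of 1897, 1906 and 1961 nt, and just outside it stretches of 2041, 2077 and 2094 nt with 1182, 552 and 561 uncovered bases. At the depth limit the nearest candidate introns had 19.93, 19.94 and 19.96% of the weaker flank, and the nearest pairs left out had 20.05, 20.08 and 20.14%.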

How the data were processed

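Per the deposited readme, the authors aligned reads with SOAP to assembly version 3.1, unmasked, with its 1266 scaffolds joined end to end, first with up to 2 mismatches, then cutting unaligned reads at either end down to 21 nt to a perfect match. The deposited values are raw counts of uniquely aligned reads per start position and alignment length; near-identical copies and repeats are missing. The SOAP version is not given in the sources used here. Positions are printed as deposited and were read as the leftmost base. Scaffold borders are not marked in the tables used here.

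Segments, depths and intervals were computed with Python 3.11.15, numpy 2.4.6, pandas 2.3.3 and scipy 1.17.1. Intervals are of 95% and cover counting error or the spread between segments only, since reads that carry no molecular identifier need not be separate molecules. Libraries were compared over windows and segments with at least 10 reads, scaled by TMM (edgeR 4.0.16), with DESeq2 1.42.0 size factors as an alternative. The search was tried on simulated, evenly read exons, none as short as the shortest or as long as the longest segments found here. The binomial test was tried on simulated splits of the real counts. The outcomes are not reported here. Members, lists and named segments were chosen with earlier results of these data known. Segments were named by rank (depth, length, longest row, low against neighbours, reads past an end, uncovered stretch); the further choices are marked in the text.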

Additional observations from a re-analysis of the deposited data

How the results depend on the processing

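The number of segments, 906, moved with the minimum of lengths at an edge: it was 524 with 8 lengths and 1756 with 4. Leaving out 1 library gave 511 to 546, and the part of the lower number of reads in this was not tested. With 8 lengths 465 members kept both ends, with 4 lengths 764. Cutting lengths at 30 nt, depth limits of 10% or none, or gaps up to 1000 nt left 748 to 1092 segments. The median length stayed at 129 to 138 nt in these settings and the share divisible by 3 at 32.8 to 35.8% (36.8% in unbroken segments). The median depth of 154 was 111 with alignments of 35 nt only and 29.9 with each position and length counted once. The neighbour ratio of 0.743, over 587 pairs, was 0.771 by highest depth over the same pairs. In the middle of segments it was 0.718, but only over the 318 pairs in which both segments had 90 nt or more. The cause of these differences was not tested. In unbroken segments with closed ends, a choice made after seeing the data, the median length was 108 nt, the median depth 101 and the neighbour ratio 0.788. Under 50% of the shallower neighbour lay 8 segments, and 1 over covered bases alone. No segment differed between the libraries under 4 other scalings, minimums or ways to count, with 50 to 52 at an unadjusted p under 0.05 in the exact binomial test. Ends with over 50% of reads running past numbered 12 with 10 nt asked on each side, against 14. For 40 named segments the mean depth from 1 library, scaled, lay within 23.3% of the summed value (median 2.37%). Matching segments to annotated exons by length was not run, because no exon annotation was used here. No paired analysis was possible because the samples form 1 group.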

Other observations

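Some rows, picked after their values were seen, changed level abruptly from one segment to the next. The most unequal neighbours of all lay in a row of 6 segments. Its first 3 segments, between 37024057 and 37025655, had mean depths of 2069, 1737 and 2158, and its last 3, between 37025791 and 37027185, had 19.06, 34.02 and 40.95. Between the third and the fourth segment lay a candidate intron of 135 nt, with 1108 cut alignments on its left side and 25 on its right. Its depth was 19.0% of that in the weaker flank, just under the limit of 20%, so that with a limit of 10% it would be no candidate intron and these would be no neighbours. The fourth segment stood at 0.00883 of the third, with depths of 9.45 and 9.60 in replicates 1 and 2 and 118 of its 288 bases uncovered. A second row of 6, between 37033450 and 37037193, had depths of 1019, 1084, 712 and 322 in its first 4 segments and 37.2 and 19.5 in the last 2. The rule does not ask that all segments of a row belong to 1 transcript, and whether these rows join neighbouring genes was not tested.

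Very short segments could stand close together. A row of 5 between 100430916 and 100431851 held segments of 27, 30, 348, 102 and 36 nt, with mean depths of 53.5, 82.2, 95.6, 198 and 100. The end of the 27 nt segment that faces the 30 nt one had 8 cut alignments and 17 uncut reads running past. A row of 7 between 65066834 and 65068896 held one of 32 nt and one of 36 nt, with depths of 89.6 and 69.6, where the others had 117 to 365. In longer segments depth was lower near the ends, and the part of this in the depths of such short segments was not tested. The 2 rows were picked after their values were seen.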
